A study of Mus musculus with 12 samples.

Results

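The Toll-like receptors (TLRs) and the co-receptors of Tlr4 were followed as 10 genes, Tlr1, Tlr2, Tlr3, Tlr4, Tlr6, Tlr7, Tlr8, Tlr9, Cd14 and Ly96, out of 19938 genes measured. They were chosen by name, but with earlier results of these data known, as were the other gene lists. Their counts set against all genes are therefore a description and not an independent test. Each of the 10 was represented by 1 probe set on the array, so no member was missing. RNA came from thioglycollate-elicited peritoneal macrophages of C57BL/6 mice that had been put on chow or a high-fat diet (HFD) at 6 weeks of age and kept on it for 12 weeks. The macrophages were left without red blood cells (RBC) or were given RBC of chow-fed or of HFD-fed mice to take up. This gave 6 groups of 2 arrays: chow macrophages and high-fat macrophages, each without RBC, after chow RBC, and after high-fat RBC. The study's title poses the question of whether RBC of HFD-fed mice activate the macrophages that ingest them. Every group shared the strain and the thioglycollate injection, so untreated resident macrophages were not among the samples, and no group received particles other than RBC. The labels number the arrays of a group as animal replicates and give no more on how cultures were separated, so the p-values measure only the spread between these arrays.

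TLRs are membrane receptors of innate immune cells that recognise microbial products and some molecules released by damaged host cells, and signal to NF-kB and to interferon regulatory factors. Tlr2 pairs with Tlr1 or Tlr6 at the cell surface to recognise bacterial lipopeptides, and Tlr4 with its subunit Ly96 (MD-2) recognises lipopolysaccharide that Cd14 hands over. Tlr3, Tlr7, Tlr8 and Tlr9 sit in endosomes, the compartments that also receive ingested cells, and recognise nucleic acids. Macrophages are known to adjust the levels of these receptors when they are activated.

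Promoter windows from RefSeq (GRCm38.p6), the 250 bases before an annotated start, matched 6 of the 10 members (Tlr1, Tlr2, Tlr3, Tlr6, Tlr8 and Tlr9, with 8 windows). Those of Tlr2, Tlr1, Tlr9 and Tlr8 are shown, because these receptors differed most between groups among those with a window. They run from 5′ to 3′ along the gene's strand, and capitals mark matches, on either strand, to the NF-kB consensus, to the ETS core GGAAGT, to the AP-1 site TGACTCA or to the interferon-response letters GAAANNGAA. The windows lie at chr3:83841609-83841858 on the minus strand (Tlr2), chr5:64933559-64933808 on the minus strand (Tlr1, the start farther upstream), chr9:106222348-106222597 on the plus strand (Tlr9) and chrX:167264330-167264579 on the minus strand (Tlr8).
Tlr2: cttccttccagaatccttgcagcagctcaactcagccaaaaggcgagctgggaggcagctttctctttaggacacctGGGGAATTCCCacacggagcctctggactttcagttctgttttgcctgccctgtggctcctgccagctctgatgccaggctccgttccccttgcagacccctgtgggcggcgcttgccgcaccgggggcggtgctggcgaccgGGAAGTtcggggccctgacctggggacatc
Tlr1: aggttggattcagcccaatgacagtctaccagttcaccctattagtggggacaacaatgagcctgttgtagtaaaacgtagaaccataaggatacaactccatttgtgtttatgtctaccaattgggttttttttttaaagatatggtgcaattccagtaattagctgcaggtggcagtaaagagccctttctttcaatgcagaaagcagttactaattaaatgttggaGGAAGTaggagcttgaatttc
Tlr9: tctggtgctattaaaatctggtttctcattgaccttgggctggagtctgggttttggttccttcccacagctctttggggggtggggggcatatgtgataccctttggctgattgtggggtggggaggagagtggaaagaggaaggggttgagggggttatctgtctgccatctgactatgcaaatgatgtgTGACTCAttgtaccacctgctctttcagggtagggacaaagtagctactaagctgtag
Tlr8: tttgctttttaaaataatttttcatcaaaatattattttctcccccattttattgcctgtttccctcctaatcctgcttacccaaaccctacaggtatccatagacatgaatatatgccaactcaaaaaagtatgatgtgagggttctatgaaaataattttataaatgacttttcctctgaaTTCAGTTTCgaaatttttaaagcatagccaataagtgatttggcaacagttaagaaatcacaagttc
The capitals in the Tlr2 window are NF-kB matches that overlap one another, starting 173 and 172 bases before the start, and GGAAGT 30 bases before it. The Tlr1 window holds GGAAGT at 21 bases, and the other Tlr1 window had no match. The Tlr9 window holds TGACTCA at 58 bases, and the Tlr8 window holds GAAANNGAA on the opposite strand at 67 bases. Of the windows not shown, 1 of Tlr6 had a pair of overlapping GAAANNGAA matches and GGAAGT, and that of Tlr3 had an NF-kB match. Among 32851 windows of this length, 7.25% held the NF-kB consensus, 19.7% GGAAGT, 4.46% TGACTCA and 7.13% GAAANNGAA, so such matches are common, and they describe letters and not binding.

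Signals are the deposited log2 values per probe set, on which a difference of 1 is a doubling, and a level of one gene's probe set cannot be set against that of another. Differences are limma estimates ± standard error (SE) from 1 model over all 12 arrays. A gene was called when its p, adjusted by Benjamini-Hochberg over all 19938 genes, was below 0.05. Replicate arrays correlated at 0.9942 to 0.9974 across genes, and the high-fat macrophages without RBC were the pair farthest apart (root mean square gap 0.241, against 0.151 to 0.191 in the other groups). The macrophage markers Cd68 (12.09 to 12.21) and Lyz2 (12.27 to 12.45) were high and near constant on every array. Both lay near the highest gene of each array (12.64 to 12.85), where differences may be compressed, which was not tested. Adgre1, a surface receptor of mature macrophages, was not constant. It was at 10.08 and 10.21 in chow macrophages without RBC and at 9.39 to 9.53 with RBC. In high-fat macrophages it was at 8.92 to 9.17 in every condition. Markers of blood cells rose with RBC: the neutrophil gene S100a9 was at 3.72 to 4.76 on the 4 arrays without RBC and at 9.57 to 10.56 on the 8 arrays with RBC, and the platelet gene Ppbp was at 4.10 to 5.79 and 8.44 to 9.82. With RBC in chow macrophages, where 8.22% of all genes were called higher and 4.51% lower, 5 of 15 neutrophil markers rose, 1 fell and 9 did not pass (list median -0.06, against -0.03 over all genes). The 1 that fell, named after its value was seen, was Mmp9 (-0.74 ± 0.10, limma adjusted p = 3.1e-04). There 4 of 7 platelet, 2 of 7 erythroid, 1 of 4 monocyte, 4 of 10 mesothelial and fibroblast and 1 of 9 macrophage markers also rose. Those that fell were 4 of 9 B cell, 2 of 9 macrophage and 2 of 10 dendritic cell markers. In high-fat macrophages 0.878% of all genes were called higher and 0.201% lower. There 6 of 15 neutrophil, 5 of 7 platelet, 1 of 7 erythroid, 1 of 4 monocyte and 2 of 9 macrophage markers (Cd14 included) rose. Of the mesothelial and fibroblast markers 1 of 10 fell. The mean of 9 T and NK cell markers was 3.99 to 4.26 on all arrays. In bulk RNA, fewer cells of a type and less RNA per cell cannot be told apart.

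**Figure D1:**
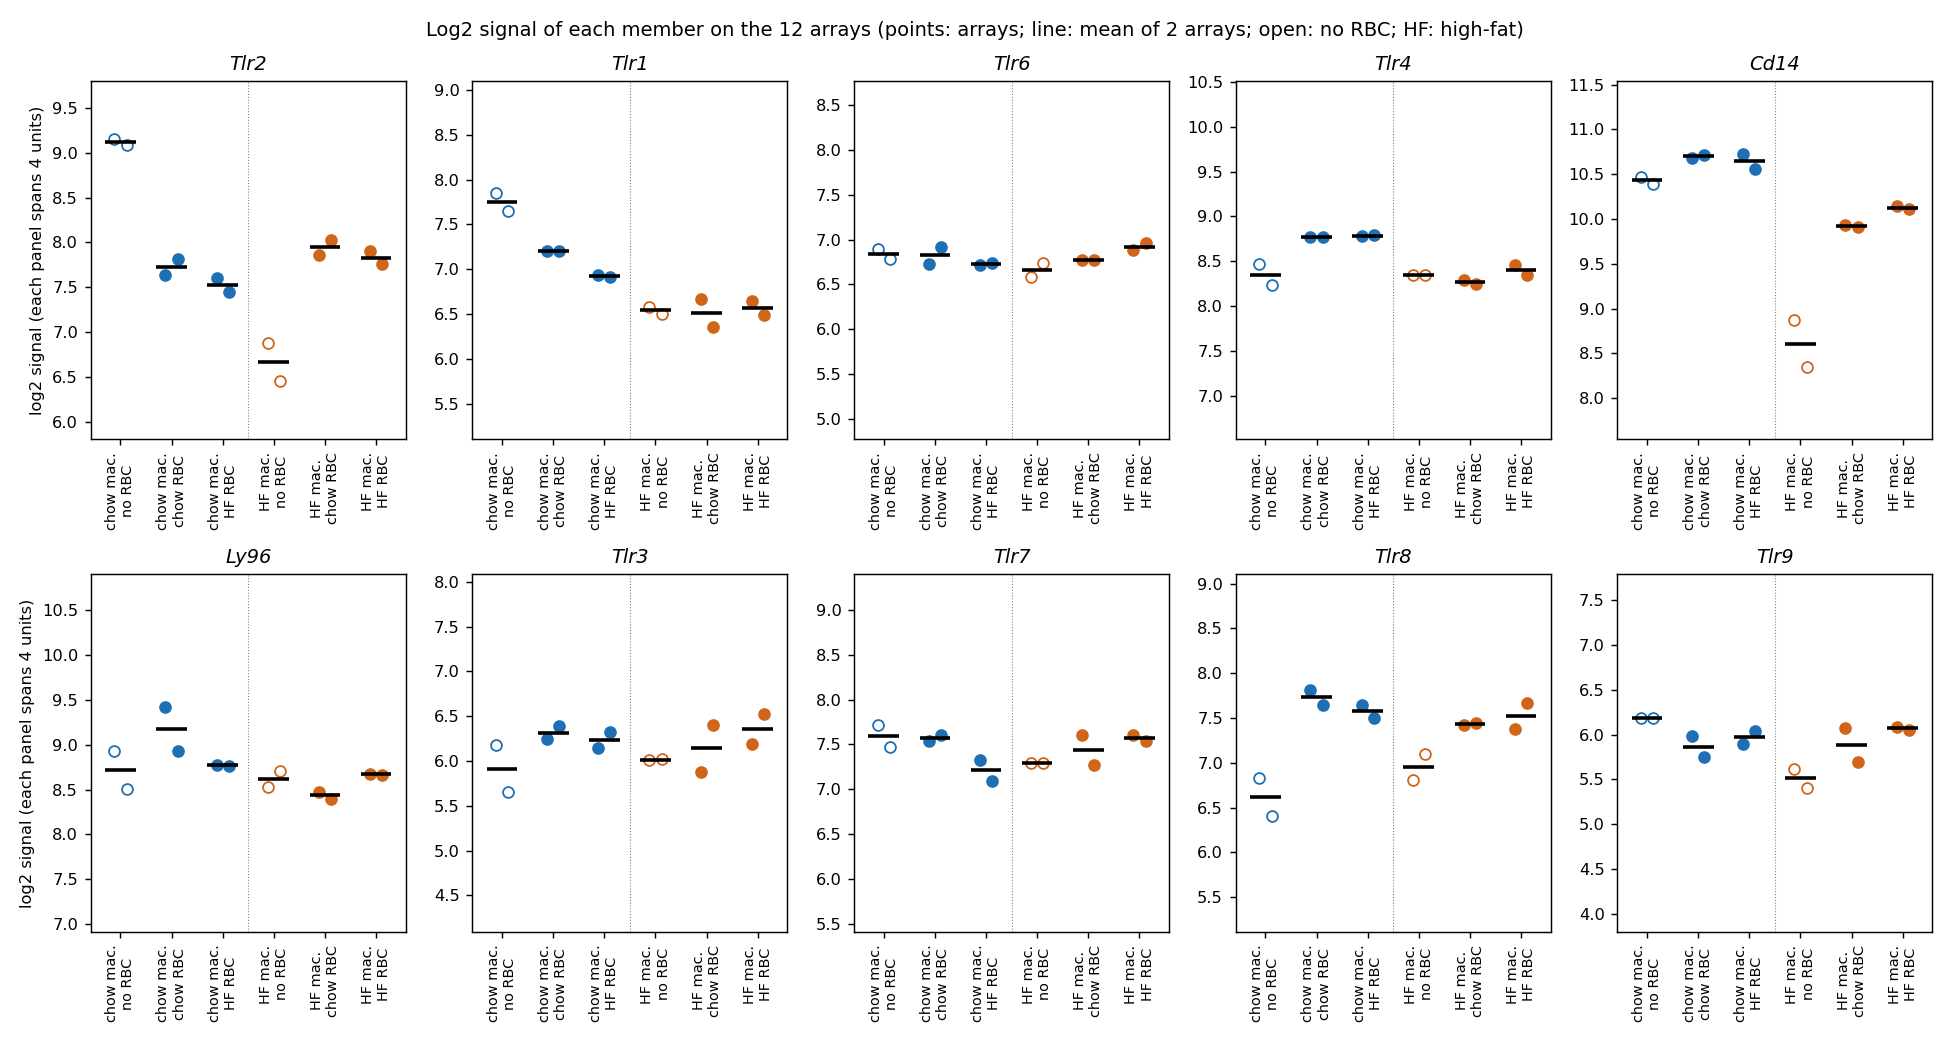
Log2 signal (vertical axis) of each member on each of the 12 arrays, by group (horizontal axis), with points for arrays and a bar for each group mean (n = 2). Tlr2 is highest in chow macrophages without RBC (9.09 and 9.15) and lowest in high-fat macrophages without RBC (6.45 and 6.88), and the 8 arrays with RBC lie between 7.44 and 8.03.

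With RBC, Tlr2 moved in opposite directions in the 2 kinds of macrophage, from levels that lay far apart without RBC. In chow macrophages its log2 signal was 9.15 and 9.09 without RBC, 7.63 and 7.81 with chow RBC, and 7.60 and 7.44 with high-fat RBC. All 4 arrays with RBC lay below both without, and Tlr2 fell 2.83-fold (log2 difference -1.50 ± 0.12, limma adjusted p = 1.7e-06). In high-fat macrophages it was 6.88 and 6.45 without RBC, 7.86 and 8.03 with chow RBC, and 7.90 and 7.76 with high-fat RBC. There all 4 arrays with RBC lay above both without, and Tlr2 rose 2.34-fold (1.22 ± 0.12, limma adjusted p = 6.4e-05). The responses differed by 2.72 ± 0.17 (limma adjusted p = 3.5e-07). From the lowest group mean, the order was high-fat macrophages without RBC, chow macrophages with high-fat RBC, chow macrophages with chow RBC, high-fat macrophages with high-fat RBC, high-fat macrophages with chow RBC, and chow macrophages without RBC. The arrays of the fourth group overlapped those of both its neighbours in that order, and the group means spanned 2.46. Neutrophils also carry Tlr2, and the mean log2 signal of 15 neutrophil markers was 5.51 to 5.52 without and 6.05 to 6.19 with RBC in chow macrophages, and 5.11 to 5.21 and 5.92 to 6.21 in high-fat macrophages. S100a9 had the largest difference of the 15 in both, and the list's median difference was -0.06 in chow and 0.20 in high-fat macrophages, with most of its genes not passing. The part of neutrophil RNA in the Tlr2 differences was not tested.

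Tlr1, a partner of Tlr2, also fell with RBC in chow macrophages but did not follow Tlr2 in high-fat macrophages. Its signal in chow macrophages was 7.85 and 7.65 without RBC, 7.20 on both arrays with chow RBC, and 6.93 and 6.91 with high-fat RBC. These 3 groups did not overlap, and the fall was 1.62-fold (-0.69 ± 0.10, limma adjusted p = 4.5e-04). In high-fat macrophages Tlr1 was 6.58 and 6.50 without RBC, 6.67 and 6.35 with chow RBC, and 6.64 and 6.49 with high-fat RBC. Those 3 groups overlapped, with a difference of 0.00 ± 0.10 (adjusted p = 1), and all 6 arrays lay below every array of chow macrophages. The responses of Tlr1 differed by 0.69 ± 0.14 (limma adjusted p = 0.011), a call that was lost without replicate 1 of the chow macrophages without RBC (0.59, adjusted p = 0.068). The group means spanned 1.24. The mean of 9 B cell markers, a cell type that also carries Tlr1 and Tlr9, was 5.12 to 5.20 in chow macrophages without RBC and 4.73 to 4.91 with RBC, and it was 4.41 to 4.52 on all arrays of high-fat macrophages, the order of groups that Tlr1 also had. The part of B cell RNA in the Tlr1 difference was not tested.

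Tlr6, the other partner of Tlr2, stayed within a span of 0.26 between group means, with signals of 6.58 to 6.96 over all 12 arrays. It was not called in any comparison. Its difference with RBC was -0.05 ± 0.09 in chow macrophages (limma adjusted p = 0.73) and 0.19 ± 0.09 in high-fat macrophages (adjusted p = 0.48), although in the latter all 4 arrays with RBC lay above both without. Tlr1 and Tlr6 are neighbours on chromosome 5 with no protein-coding gene between them, and they are close in sequence. Probe sequences were not analysed here, so cross-hybridization between the 2 genes, or between Tlr7 and Tlr8, was not tested.

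Cd14, the co-receptor that delivers lipopolysaccharide to Tlr4, rose with RBC in high-fat macrophages. Its signal there was 8.87 and 8.35 without RBC, 9.93 and 9.91 with chow RBC, and 10.14 and 10.11 with high-fat RBC. These 3 groups did not overlap, and the rise was 2.66-fold (1.41 ± 0.12, limma adjusted p = 1.6e-05). In chow macrophages Cd14 was 10.47 and 10.39 without RBC, 10.68 and 10.72 with chow RBC, and 10.73 and 10.56 with high-fat RBC. All 4 arrays with RBC lay above both without, but the difference of 0.24 ± 0.12 did not pass (adjusted p = 0.20). The responses of Cd14 differed by 1.17 ± 0.17 (limma adjusted p = 7.5e-04). The level without RBC was 3.54-fold lower in high-fat than in chow macrophages, and with RBC the high-fat arrays still lay below all chow arrays. Cd14 is among the macrophage markers too. The mean of the 9 measured macrophage markers, Cd14 included, was 9.65 to 9.70 in high-fat macrophages without RBC and 9.99 to 10.01 with RBC. In chow macrophages of every condition that mean was 10.20 to 10.29. The differences of Cd14 itself are part of those in this mean, and a mean without Cd14 was not computed. Monocytes also carry Cd14, and the mean of 4 monocyte markers was 4.25 to 4.44 in high-fat macrophages without RBC, 4.86 to 5.12 with chow RBC and 4.77 to 4.87 with high-fat RBC. In chow macrophages the monocyte marker mean was 4.74 and 5 on the arrays without RBC and 5.03 to 5.41 with RBC. The part of monocyte RNA, or of neutrophil RNA (values given for Tlr2), in the Cd14 rise was not tested.

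Tlr4, the signalling chain of the lipopolysaccharide receptor, rose with RBC in chow macrophages. Its signal was 8.47 and 8.23 without RBC, 8.77 on both arrays with chow RBC, and 8.78 and 8.79 with high-fat RBC. All 4 arrays with RBC lay above both without, a rise of 1.35-fold (0.43 ± 0.09, limma adjusted p = 0.005). Without replicate 2 of the chow macrophages without RBC the call was lost (0.31, adjusted p = 0.13). In high-fat macrophages Tlr4 was 8.35 and 8.34 without RBC, 8.29 and 8.24 with chow RBC, and 8.46 and 8.35 with high-fat RBC, and the difference was -0.01 ± 0.09 (adjusted p = 0.99). The responses of Tlr4 differed by -0.44 ± 0.12, which did not pass (limma adjusted p = 0.057). This difference passed with quantile normalization (limma adjusted p = 0.048) and with the genes of lowest mean left out (adjusted p = 0.035). It also passed with an intensity trend and robust eBayes (limma adjusted p = 0.023). Without replicate 1 of the chow macrophages without RBC it was -0.56.

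Ly96, which binds the lipid part of lipopolysaccharide, was not called with RBC in either kind of macrophage. It was 8.93 and 8.51 in chow macrophages without RBC, 9.42 and 8.93 with chow RBC, and 8.78 and 8.76 with high-fat RBC. In high-fat macrophages it was 8.53 and 8.71 without RBC, 8.47 and 8.40 with chow RBC, and 8.68 and 8.66 with high-fat RBC. The response was 0.25 ± 0.14 (limma adjusted p = 0.25) in chow and -0.07 ± 0.14 (adjusted p = 0.90) in high-fat macrophages. Replicates lay 0.42 apart in chow macrophages without RBC and 0.49 apart with chow RBC, and at most 0.19 apart in the other groups, while the group means spanned 0.74.

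Tlr8, an endosomal receptor for single-stranded RNA, rose with RBC in chow macrophages. Its signal was 6.83 and 6.41 without RBC, 7.81 and 7.65 with chow RBC, and 7.65 and 7.50 with high-fat RBC. The arrays with RBC all lay above those without, and the rise was 2.04-fold (1.03 ± 0.13, limma adjusted p = 1.2e-04). In high-fat macrophages Tlr8 was 6.81 and 7.10 without RBC, 7.42 and 7.44 with chow RBC, and 7.38 and 7.67 with high-fat RBC. Here too all 4 arrays with RBC lay above both without, but the difference of 0.52 ± 0.13 did not pass (limma adjusted p = 0.078). It passed with an intensity trend and robust eBayes (limma adjusted p = 0.035). It also passed without replicate 2 of the high-fat macrophages without RBC (0.66). The responses of Tlr8 were not shown to differ (-0.51 ± 0.18, limma adjusted p = 0.14), and without replicate 1 of the chow macrophages without RBC that difference passed (-0.72, adjusted p = 0.048). Tlr7, the neighbouring gene on the X chromosome, which encodes another receptor for single-stranded RNA, was at 7.09 to 7.72 on all arrays, with every neighbouring pair of group means overlapping. Its difference with RBC was -0.20 ± 0.11 in chow macrophages (adjusted p = 0.26) and 0.22 ± 0.11 in high-fat macrophages (adjusted p = 0.52).

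Tlr9, the endosomal receptor for DNA with unmethylated CpG, had the same opposite ordering as Tlr2 at a smaller size, without a call in either kind of macrophage alone. In chow macrophages its signal was 6.19 on both arrays without RBC, 5.98 and 5.75 with chow RBC, and 5.90 and 6.04 with high-fat RBC. In high-fat macrophages it was 5.62 and 5.40 without RBC, 6.07 and 5.69 with chow RBC, and 6.09 and 6.05 with high-fat RBC. All 4 arrays with RBC lay below both without in chow macrophages (-0.27 ± 0.11, limma adjusted p = 0.14) and above both in high-fat macrophages (0.47 ± 0.11, adjusted p = 0.078). The latter passed without replicate 2 of the high-fat macrophages given chow RBC (0.56, adjusted p = 0.03). The responses of Tlr9 differed by 0.74 ± 0.16 (limma adjusted p = 0.015), a call lost without replicate 1 (0.74, adjusted p = 0.056) or replicate 2 (0.74, adjusted p = 0.072) of the chow macrophages without RBC, or replicate 2 of the high-fat macrophages without RBC (0.62, adjusted p = 0.063). Tlr3, the receptor for double-stranded RNA, ran from 5.65 to 6.53, with every neighbouring pair of group means overlapping and a largest gap of 0.53 between replicates. It was not called with RBC in chow (0.36 ± 0.16, adjusted p = 0.15) or high-fat macrophages (0.24 ± 0.16, adjusted p = 0.66).

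Counted over all 10, RBC raised 2 of the 10 genes (Tlr8 and Tlr4) and lowered 2 (Tlr2 and Tlr1) in chow macrophages, where 8.22% of all genes were called higher and 4.51% lower. The median difference of the 10 was 0.09, against -0.03 over all genes. In high-fat macrophages 2 of the 10 rose (Cd14 and Tlr2) and 0 fell, against 0.878% of all genes called higher and 0.201% lower by limma. Of the 10, 4 had an unadjusted limma p below 0.05 in either direction, as had 2163 of all 19938 genes. There the median was 0.23, against 0.00 over all genes. The test of the difference between the responses called 4 of the 10 with the more positive response in high-fat macrophages (Tlr2, Cd14, Tlr9 and Tlr1), against 2.57% of all genes. It called 0 with the more negative response, against 3.10%. Of the 10, 7 had an unadjusted limma p below 0.05 in either direction, as had 3544 of all 19938 genes. The median of this difference was 0.33, against 0.02 over all genes. Each response rests on the 2 arrays without RBC of its own macrophages, and the difference between responses on all 4, so it shares its arrays with both. It also equals the difference between high-fat and chow macrophages with RBC minus that without RBC. For these genes and for the lists given later, those results are therefore not independent of it.

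**Figure D2:**
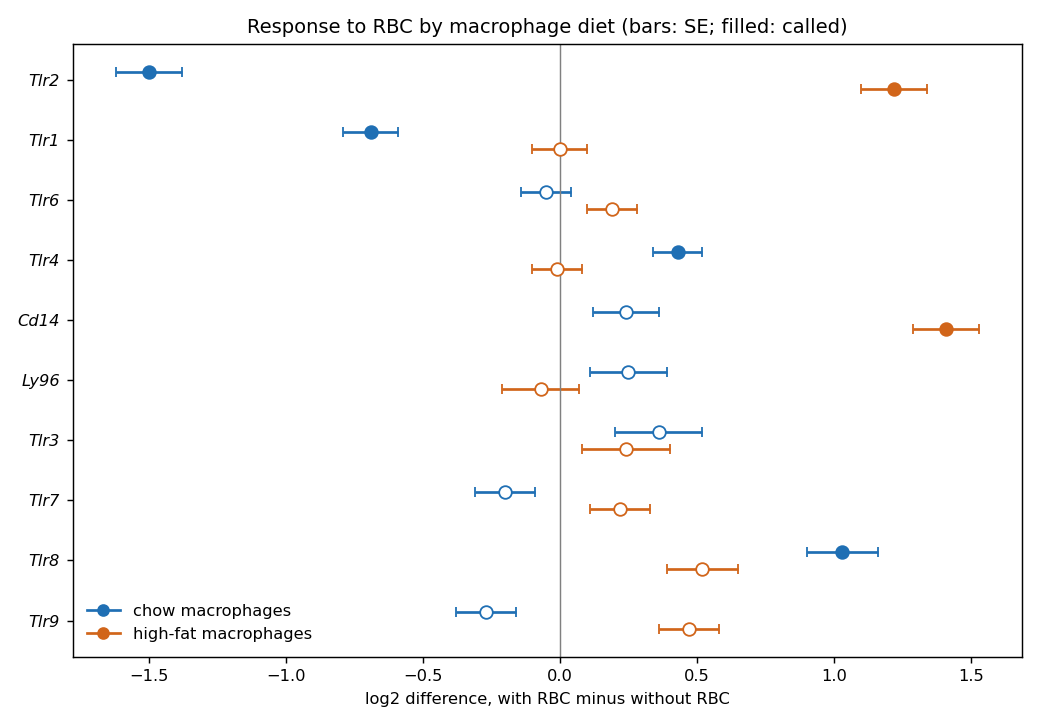
Log2 difference with RBC against without (horizontal axis) for each member (vertical axis) in chow and in high-fat macrophages, with bars for the SE from limma and filled points for calls at an adjusted p below 0.05. Tlr2 lies at -1.50 in chow and 1.22 in high-fat macrophages, and Cd14 at 0.24 and 1.41.

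Each kind of RBC gave the same calls taken alone. In chow macrophages chow RBC (9.18% of all genes called) gave log2 differences of -1.40 for Tlr2, -0.55 for Tlr1, 1.10 for Tlr8 and 0.42 for Tlr4 (limma adjusted p = 1.9e-05, 0.0087, 3.2e-04 and 0.017). High-fat RBC (8.34% of all genes called) gave -1.60, -0.83, 0.95 and 0.44 for Tlr2, Tlr1, Tlr8 and Tlr4 (limma adjusted p = 5.8e-06, 4.8e-04, 1.0e-03 and 0.016). In high-fat macrophages chow RBC (0.647% of all genes called) raised Cd14 by 1.31 and Tlr2 by 1.28 (limma adjusted p = 2.2e-04 and 2.4e-04). High-fat RBC (0.752% called) raised Cd14 by 1.52 and Tlr2 by 1.17 (limma adjusted p = 3.7e-05 and 4.5e-04). The 2 kinds of RBC were set against the same arrays without RBC within each kind of macrophage.

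The diet of the RBC donor, set against itself over both kinds of macrophage, was tested directly. Of the 10 genes, 0 were called in either direction by limma and 0 had an unadjusted p below 0.05, against 0.01% of all genes called (2 genes) and 629 genes at an unadjusted p below 0.05. High-fat minus chow RBC was -0.16 for Tlr2 (95% interval -0.36 to 0.05) and 0.07 for Cd14 (-0.13 to 0.28). It was 0.07 for Tlr4 (-0.08 to 0.23), -0.03 for Tlr8 (-0.25 to 0.20) and 0.15 for Tlr9 (-0.05 to 0.35). For the other genes the estimates were -0.11 for Tlr1 and for Tlr7, -0.08 for Ly96, 0.07 for Tlr3 and 0.03 for Tlr6. The widest of the 10 intervals was that of Tlr3 (-0.21 to 0.35), so the arrays leave room for differences of this size and do not show that the 2 kinds of RBC act alike. Blood cell markers also varied with the donor's diet. The platelet marker mean was 7.04 to 7.08 with chow and 6.54 to 6.91 with high-fat RBC in chow macrophages. In high-fat macrophages it was 6.95 to 7.03 and 6.57 to 6.77, and the neutrophil marker mean was 5.92 to 5.95 and 6.20 to 6.21. In chow macrophages the neutrophil means overlapped. The part of these cells was not tested.

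Within chow macrophages the RBC donor's diet gave 0 calls among the 10 genes and over all genes (0%). An unadjusted limma p below 0.05 was found for 555 of all 19938 genes and for 3 of the 10. These were Ly96 (-0.40), Tlr7 (-0.36) and Tlr1 (-0.28), each with an adjusted p of 1 by limma. Within high-fat macrophages 0 of the 10 were called, against 0.0251% of all genes. There 0 of the 10 had an unadjusted limma p below 0.05, against 789 of all 19938 genes. The interaction of RBC diet with macrophage diet called 0 of the 10 and 0% of all genes. Its unadjusted limma p was below 0.05 for Ly96 (0.64) and Tlr7 (0.50), and for 718 of all 19938 genes.

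High-fat macrophages without RBC had lower levels of 4 of the 10 genes than chow macrophages without RBC, with the values per array given for each gene. The same 4 genes had responses to RBC that differed. That difference contains the present one with opposite sign, so the 2 results are not independent. Tlr2 was 5.50-fold lower (-2.46 ± 0.14, limma adjusted p = 2.3e-08), Cd14 3.54-fold lower (-1.82 ± 0.14, adjusted p = 5.0e-07) and Tlr1 2.32-fold lower (-1.21 ± 0.12, adjusted p = 6.3e-06). Tlr9 was 1.60-fold lower (-0.68 ± 0.13, limma adjusted p = 0.0029). In each of the 4 genes both high-fat arrays lay below both chow arrays, an ordering not counted over all genes. Over all genes 5.82% were called lower and 8.12% higher, and among the 10 genes 0 were called higher by limma. Of the 10, 6 had an unadjusted limma p below 0.05 in either direction, as had 5081 of all 19938 genes. The median of the 10 was -0.24, against -0.01 over all genes. The estimates of the other genes were 0.33 for Tlr8, -0.30 for Tlr7, -0.18 for Tlr6, -0.10 for Ly96, 0.10 for Tlr3 and -0.01 for Tlr4, with adjusted p from 0.15 to 0.98. Beside these differences, macrophage markers (9.65 to 9.70 in high-fat against 10.25 in chow macrophages without RBC), neutrophil markers (5.11 to 5.21 against 5.51 to 5.52) and B cell markers (4.41 to 4.50 against 5.12 to 5.20) were lower as list means, and their part was not tested. Of the 9 macrophage markers, Cd14 included, 5 were lower, 1 was higher and 3 did not pass. The difference of Cd14 itself is thus part of that in the macrophage marker mean. Of 15 neutrophil markers 5 were lower and 0 higher, and of 9 B cell markers 6 were lower and 1 higher.

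With RBC present, 4 genes were lower in high-fat macrophages, of which Tlr1 and Cd14 were also lower without RBC. Cd14 was 1.57-fold lower (-0.65 ± 0.10, limma adjusted p = 9.5e-04) and Tlr1 1.43-fold lower (-0.52 ± 0.08, adjusted p = 0.0019). Tlr4 was 1.36-fold lower (-0.44 ± 0.07, limma adjusted p = 0.0019). For Cd14, Tlr1, Tlr4 and Ly96 all 4 high-fat arrays with RBC lay below all 4 chow arrays with RBC, an ordering not counted over all genes. Ly96 was 1.34-fold lower (-0.42 ± 0.11, limma adjusted p = 0.044), a call that was lost when arrays were centred on their medians (adjusted p = 0.057) and without any of 7 of the 8 arrays with RBC, the estimates then running from -0.44 to -0.30 with adjusted p from 0.098 to 0.18. Replicate 1 of the chow macrophages given chow RBC moved it most (-0.30 without it, adjusted p = 0.18), and the call held without replicate 2 of that group. Tlr2, 5.50-fold apart without RBC, differed by 0.27 ± 0.10 with RBC (adjusted p = 0.15). Of all genes 2.65% were called lower and 2.20% higher, and of the 10 genes 0 were called higher by limma. An unadjusted limma p below 0.05 in either direction was found for 5 of the 10, and for 3268 of all 19938 genes. The median of the 10 was -0.10, against 0.01.

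**Figure D3:**
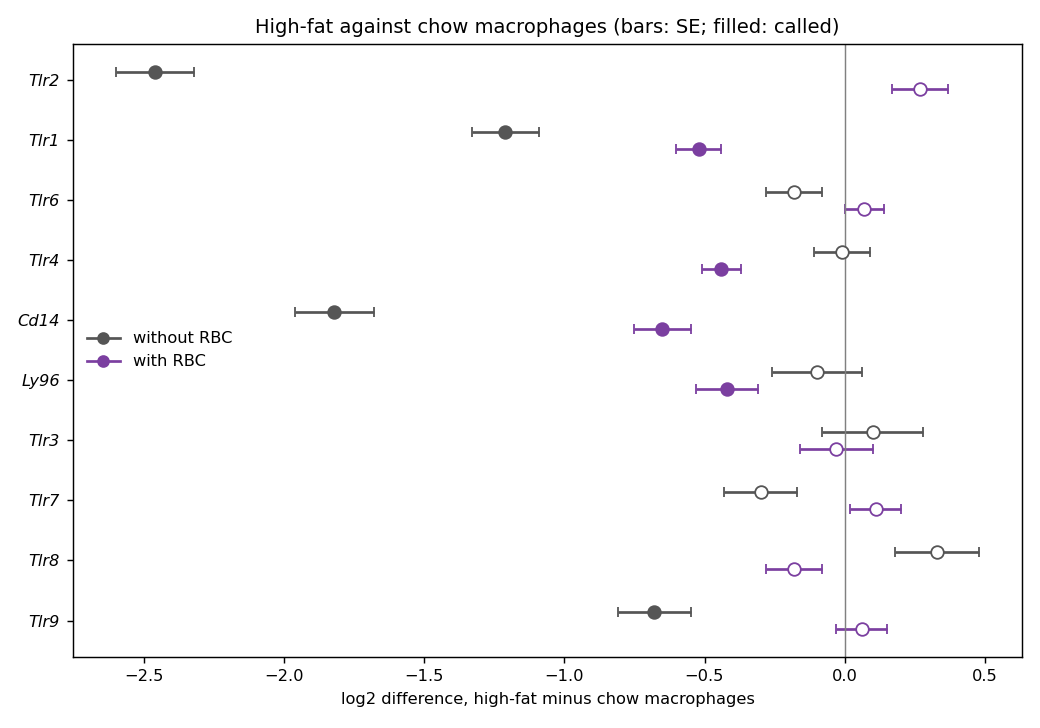
Log2 difference of high-fat against chow macrophages (horizontal axis) for each member (vertical axis), without RBC and with RBC (mean of both RBC kinds), with bars for the SE from limma and filled points for calls. Tlr2 lies at -2.46 without RBC and at 0.27 with RBC, while Tlr4 lies at -0.01 and -0.44.

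Split by RBC donor, the difference between macrophages was called with chow RBC for Cd14 (-0.78, limma adjusted p = 0.0065), Ly96 (-0.74, adjusted p = 0.023), Tlr1 (-0.69, adjusted p = 0.0057) and Tlr4 (-0.51, adjusted p = 0.016), against 2.47% of all genes called. With high-fat RBC 0 of the 10 were called by limma, against 1.36% of all genes. There 5 of the 10 had an unadjusted limma p below 0.05, as had 1934 of all 19938 genes. The estimates there were -0.52 for Cd14 (limma adjusted p = 0.097), -0.38 for Tlr4 (adjusted p = 0.10) and -0.35 for Tlr1 (adjusted p = 0.25). Those of Tlr7 (0.36, limma adjusted p = 0.29) and Tlr2 (0.31, adjusted p = 0.48) went the other way. The median of the 10 there was 0.02, against 0.01 over all genes. That a gene passed with 1 kind of RBC and not with the other does not show a difference between them: the interaction of RBC diet with macrophage diet, given earlier, called none of these genes (0% of all genes).

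The other genes of the pathway were taken from lists by role. Of the adaptors and proximal kinases that carry the TLR signal, 22 of 26 were measured, and with RBC in chow macrophages 4 fell and 0 rose, against 4.51% and 8.22% of all genes (list median -0.20, against -0.03 over all genes). Those were Ikbke, a kinase of the interferon branch (-0.89 ± 0.08, limma adjusted p = 8.6e-06), Myd88, the adaptor of most TLRs (-0.61 ± 0.09, adjusted p = 4.3e-04), the ubiquitin ligase Peli1 (-0.58 ± 0.10, adjusted p = 0.0021) and the Tlr4 adaptor Ticam2 (-0.30 ± 0.09, adjusted p = 0.044). In high-fat macrophages Irf7, the interferon regulatory factor downstream of Tlr7 and Tlr9, was the 1 of 22 that rose (0.91 ± 0.17, limma adjusted p = 0.019), and 0 fell, against 0.878% and 0.201% of all genes (list median 0.08, against 0.00). The difference between responses was called for 4 of the 22, all more positive in high-fat macrophages, against 2.57% of all genes (list median 0.27, against 0.02): Ikbke (1.15 ± 0.12), Irf7 (1.29 ± 0.25), Peli1 (0.89 ± 0.15) and Myd88 (0.53 ± 0.13), with limma adjusted p from 4.9e-05 to 0.025. Irf7 was at 9.19 and 9.27 in chow macrophages without RBC and at 5.39 and 5.98 in high-fat macrophages without RBC, a difference of -3.54 ± 0.20 (limma adjusted p = 3.1e-08). In that comparison 6 of the 22 were lower and 0 higher, against 5.82% and 8.12% of all genes (list median -0.31, against -0.01). With RBC Irf7 alone of the 22 was lower (-2.25 ± 0.14, limma adjusted p = 2.6e-07), against 2.65% of all genes.

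Of the negative regulators, several of which are themselves induced by TLR signalling, 9 of 18 measured (of 19 listed) fell with RBC in chow macrophages and 0 rose, against 4.51% and 8.22% of all genes. The list median was -0.34, against -0.03 over all genes. Irak3, a kinase-like inhibitor of the Myd88 complex, fell by 1.17 ± 0.11 (limma adjusted p = 7.9e-06). Nfkbia, the inhibitor of NF-kB, fell by 1.07 ± 0.13 (limma adjusted p = 7.6e-05). Tank fell by 0.63 ± 0.10 and Socs3 by 0.66 ± 0.11 (limma adjusted p = 8.1e-04 and 0.0014). In high-fat macrophages Trim30a was the 1 of 18 that rose (0.45 ± 0.09, limma adjusted p = 0.028) and 0 fell, against 0.878% and 0.201% of all genes (list median 0.07, against 0.00). The difference between responses was called for 8 of the 18, all with the more positive response in high-fat macrophages, against 2.57% of all genes (list median 0.43, against 0.02), among them Irak3 (1.41 ± 0.15) and Nfkbia (1.37 ± 0.18), with limma adjusted p = 7.7e-05 and 3.7e-04. Without RBC 10 of the 18 were lower in high-fat macrophages and 0 higher, against 5.82% and 8.12% of all genes, with a list median of -0.41 against -0.01 (Irak3 -1.53 ± 0.12, Dusp1 -1.40 ± 0.14 and Nfkbia -1.25 ± 0.15, limma adjusted p = 1.1e-06, 9.9e-06 and 4.1e-05). With RBC 1 was lower, Dusp1 (-0.62 ± 0.10, limma adjusted p = 0.002), against 2.65% of all genes.

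All 15 accessory and trafficking proteins were measured. With RBC in chow macrophages 2 of the 15 rose and 0 fell, against 8.22% and 4.51% of all genes (list median 0.07, against -0.03): the chaperone Cnpy4 (0.38 ± 0.11, limma adjusted p = 0.035) and the endosomal protease Lgmn (0.33 ± 0.10, adjusted p = 0.047). In high-fat macrophages 0 of the 15 were called by limma, against 0.878% of all genes higher and 0.201% lower. In the difference between responses 0 were called too, against 2.57% more positive and 3.10% more negative. Without RBC 3 of the 15 were lower and 2 higher in high-fat macrophages, against 5.82% and 8.12% of all genes (list median 0.03, against -0.01). Unc93b1, which escorts the endosomal TLRs, was lower (-0.73 ± 0.17, limma adjusted p = 0.01), as was Ly86, the MD-1 partner of the Tlr4 relative Cd180 (-0.59 ± 0.13, adjusted p = 0.0054), and the TLR chaperone Hsp90b1 was higher (0.45 ± 0.10, adjusted p = 0.0068). With RBC Ly86 was lower (-0.65 ± 0.09, limma adjusted p = 5.2e-04) and Hsp90b1 higher (0.29 ± 0.07, adjusted p = 0.03). They were the only calls of the 15 there, against 2.65% of all genes lower and 2.20% higher. Of the TLRs outside the 10, Tlr12 and Tlr13 were measured of 4 listed, and Tlr13, which recognises bacterial ribosomal RNA, rose with RBC in chow macrophages (0.30 ± 0.08, limma adjusted p = 0.024) and was higher in high-fat macrophages without RBC (0.31 ± 0.09, adjusted p = 0.04).

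Endogenous ligands that can act on Tlr2 or Tlr4 were led by S100a9. Of 10 measured (of 11 listed), 4 rose and 1 fell with RBC in chow macrophages, and 3 rose and 0 fell in high-fat macrophages. Over all genes these shares were 8.22% and 4.51% in chow and 0.878% and 0.201% in high-fat macrophages, and the list medians were 0.30 and 0.12, against -0.03 and 0.00. S100a9 rose by 5.24 ± 0.12 and 6.28 ± 0.12 (limma adjusted p = 9.9e-12 and 8.5e-13), and its partner S100a8 by 0.75 ± 0.11 and 0.71 ± 0.11 (adjusted p = 5.6e-04 and 0.0053). Both are also neutrophil markers, as said of S100a9, and whether the RNA came from carried-over blood cells was not tested. The matrix proteoglycan Bgn, a ligand of Tlr2 and Tlr4, rose in chow macrophages (1.54 ± 0.11, limma adjusted p = 1.1e-06) and differed between responses (-1.41 ± 0.16, adjusted p = 1.2e-04). The matrix glycoprotein Tnc rose in both (1.03 ± 0.09 and 0.63 ± 0.09, limma adjusted p = 3.7e-06 and 0.0016).

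All 14 other pattern recognition receptors listed were measured. With RBC 8 fell and 2 rose in chow macrophages, against 4.51% and 8.22% of all genes (list median -0.41, against -0.03). In high-fat macrophages 7 rose and 0 fell, against 0.878% and 0.201% of all genes (list median 0.31, against 0.00). Clec4e, the Mincle receptor for mycobacterial glycolipid and dead cells, fell in chow macrophages (-1.68 ± 0.10, limma adjusted p = 9.8e-08) and rose in high-fat macrophages (1.10 ± 0.10, adjusted p = 3.5e-05). Its signal was 11.19 and 11.21 in chow and 7.44 and 7.77 in high-fat macrophages without RBC, and 9.44 to 9.68 and 8.60 to 8.75 with RBC. Nlrp3, the inflammasome sensor, fell by 1.44 ± 0.09 and rose by 0.48 ± 0.09 (limma adjusted p = 2.3e-07 and 0.02), and Ddx58, the RNA sensor RIG-I, fell by 0.74 ± 0.10 and rose by 0.53 ± 0.10 (adjusted p = 1.9e-04 and 0.017). Clec7a, the Dectin-1 receptor for fungal glucan, rose in both (0.65 ± 0.09 and 0.44 ± 0.09, limma adjusted p = 1.9e-04 and 0.022). The difference between responses was called for 7 of the 14, all more positive in high-fat macrophages, against 2.57% of all genes (list median 0.52, against 0.02). Without RBC 7 of the 14 were lower in high-fat macrophages and 1 higher, against 5.82% and 8.12% of all genes (list median -0.78, against -0.01). High-fat against chow RBC called 0 genes of any of these 6 lists by limma. Of all genes 0.01% (2 genes) were called, so this count does not set the lists apart from the other genes.

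**Figure D4:**
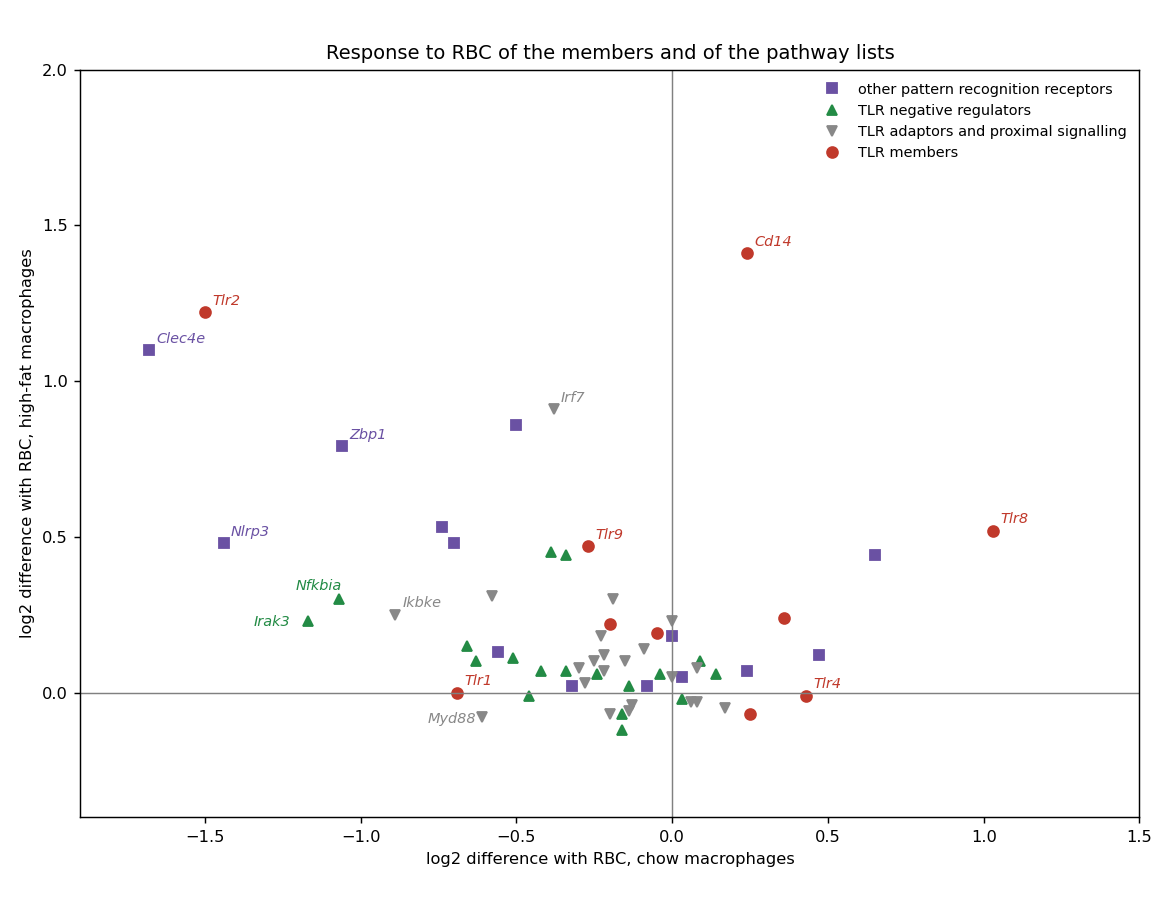
Log2 difference with RBC in chow macrophages (horizontal axis) against that in high-fat macrophages (vertical axis) for the 10 members and 3 of the pathway lists; both axes use arrays without RBC of their own macrophages only. Tlr2 (-1.50 and 1.22) and Clec4e (-1.68 and 1.10) lie together at the upper left, Cd14 (0.24 and 1.41) at the top, and Tlr8 (1.03 and 0.52) at the right.

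Over the 12 arrays the members' profiles were also set against 9968 genes with a mean above the median gene. These correlations describe 12 arrays that share groups and libraries, with no test. Closest to Tlr2 were Prkar2b (r = 0.95), Acod1 (0.95), which encodes the enzyme that makes itaconate, and Lpcat2 (0.94), and farthest were Fzd7 (-0.95) and Klhdc2 (-0.94). Closest to Cd14 were Arrb2 (0.97), Ier3 (0.95) and Fos (0.95), and farthest were Efr3b (-0.96) and Plau (-0.94). For Tlr4 they were Mad2l2, Gm5150 and Tdp2 (each 0.93), with Mink1 (-0.93) and Abcc5 (-0.92) farthest. For Tlr9 they were Snx20 (0.89), Zbtb7b (0.88) and Ptgs2 (0.85), with Atat1 (-0.88) and Dach1 (-0.85) farthest. Tlr7, which varied least of these between groups, had weaker values: Cd5l and Ypel5 (each 0.83) and Tbc1d31 (0.82), with Pdp1 (-0.79) and Zfp358 (-0.76) farthest. Among the 10 genes themselves Tlr2 was closest to Tlr9 (0.77), Tlr4 to Ly96 (0.73), and Tlr1 to Tlr2 (0.72).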

How the data were processed

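RNA of 12 macrophage cultures in 6 groups of 2 was amplified and biotin-labelled with NuGEN kits, per the labels' protocols, and hybridised to 1-colour expression arrays. The authors deposited log2 signals per probe set; the log2 scale was inferred from their range, and the summarization and normalization are not given in the sources used here. Signal over background is not known, as detection calls were not analysed here, and precision is limited by having 2 arrays a group.

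Of 35557 probe sets, 35556 had values; 21789 had 1 gene symbol in the probe table, 1621 had several (left out), and 12146 were not listed. The brightest probe set by mean stood for each of 999 genes that had several, giving 19938 genes. limma 3.58.1 in R 4.3.3 (lmFit, eBayes; residual df 6, prior df 7.69) fitted 1 mean per group to all 12 arrays, with 15 contrasts and Benjamini-Hochberg adjustment over all genes of a contrast. Exposure contrasts average both kinds of RBC. The script was tested on simulated data.

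All 10 members are named; from the other lists at most the 4 of smallest p per comparison are named, with S100a9 and Ppbp as blood cell markers and Cd68, Lyz2 and Adgre1 as macrophage markers. For likeness, the 3 highest and 2 lowest correlations of 5 members are given. Members and lists were chosen with earlier results of these data known. Alternatives covered probe set choice, normalization, filter, variance model, array weights, blocking, the arrays fitted, the threshold and leaving out each array. Same-numbered arrays of the 3 groups within a macrophage diet deviated together in some pairs of groups and not in others (correlations of deviations -0.08 to 0.34), so the numbers were not taken to pair the samples.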

Additional observations from a re-analysis of the deposited data

Results flagged for a closer look

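The response to RBC differed between chow and high-fat macrophages for 4 of the 10 genes, by limma's test of the difference itself (high-fat response minus chow response on the log2 scale). This difference was 2.72 ± 0.17 for Tlr2 (limma adjusted p = 3.5e-07), which fell in all 4 arrays with RBC of chow macrophages and rose in all 4 of high-fat macrophages. It was 1.17 ± 0.17 for Cd14 (limma adjusted p = 7.5e-04), with the rise in high-fat macrophages. It was 0.74 ± 0.16 for Tlr9 (limma adjusted p = 0.015), where neither response was called alone. It was 0.69 ± 0.14 for Tlr1 (limma adjusted p = 0.011), which fell in chow macrophages and was at 0.00 ± 0.10 in high-fat macrophages. The calls of Tlr9 and Tlr1 were lost when certain single arrays were left out, as given for each gene. Over all such omissions the estimates ran from 0.62 to 0.85 for Tlr9 and from 0.59 to 0.79 for Tlr1.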

How the results depend on the processing

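Each result was recomputed under 22 alternatives. Among the values of single members, 1294 kept their side of the threshold, 13 passed it and 13 no longer passed it. Of the values called in the main analysis or in the alternative, 0 reversed. Values called in neither were not checked for direction, and some changed sign. The Tlr3 difference between responses, for example, ran from -0.39 to 0.14 when single arrays were left out. The count of members with a called more negative response in high-fat macrophages was 0 and became 1 with quantile normalization, with the genes of lowest mean left out, with an intensity trend and robust eBayes, with the replicate block within each macrophage diet, and at an adjusted p below 0.10; leaving out single arrays gave 0 to 2. The count with a more positive response was 4 and ran from 2 to 4 when single arrays were left out. Members called higher with RBC in high-fat macrophages went from 2 to 4 at an adjusted p below 0.10, and members called higher in chow macrophages ran from 1 to 2 when single arrays were left out. With the replicate block within each macrophage diet, Tlr8 passed in high-fat macrophages (0.52, limma adjusted p = 0.021) and in the difference between responses (-0.51, adjusted p = 0.049), and no call of a member was lost; the block over all groups changed no call. Tlr2 ranged over all alternatives from -1.55 to -1.45 in chow macrophages, 1.01 to 1.44 in high-fat macrophages, and 2.51 to 2.94 in the difference. When an array is left out, its group has a single array, which is assumed to vary like the others. With 2 arrays per group, SEs of 0.07 to 0.23 in the main comparisons limit which differences can pass.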
